A study of Mus musculus with 34 samples.

Results

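The cytosolic ribosome is the machine that translates messenger RNA, and each of its proteins is made from its own gene or small set of genes. The 40S subunit holds the decoding site, the 60S subunit holds the peptidyl transferase centre and the exit tunnel, and the P-stalk proteins on the 60S subunit recruit the translation factors. In mammals these genes are transcribed at high and matched levels in nearly all cells, most of them are short, and their messengers typically begin with a run of pyrimidines through which mTOR controls their translation. In a β-cell they serve the synthesis of insulin, which makes up a large share of the protein the cell produces.

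The cytosolic ribosomal protein genes were taken as the protein-coding mouse genes whose symbol is Rpl or Rps followed by a number. The number could be followed by a letter (a, l, x or y), by a digit, or by such a letter and then a digit. Rplp0, Rplp1 and Rplp2 were included as well. The rule found 83 genes of 21887 protein-coding genes, namely 30 genes of 40S proteins, 43 of 60S proteins, 3 of the stalk and 7 paralogs. A further 6 genes, Rpsa, Fau and Rack1 among them, lie outside the symbol rule and are given apart. All groups were Beta-TC6 cells, an insulinoma line of mouse β-cells, and all had received a 1 h pulse of 10 µM forskolin, which synchronises circadian clocks. Chromatin immunoprecipitation with sequencing was applied to SIN3A, a corepressor subunit that carries histone deacetylases, in wild-type cells with Pdx1 siRNA or with control siRNA, in 2 samples each. It was applied to p65, the transactivating subunit of NF-κB, and to PDX1, a homeodomain factor of β-cell identity, in 4 groups of 3 samples each. These 4 groups were Bmal1-/- cells with IL-1B, Bmal1-/- control cells, wild-type cells with IL-1B and wild-type control cells, where Bmal1 encodes an activator of the core clock. The labels give neither IL-1B dose and time nor the number of knockout clones. For PDX1 with IL-1B, in both genotypes, the antibody field reads p65 and the title PDX1, and the samples were taken by title.

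Each group is represented by 1 peak list made by the authors from 31.0 to 63.9 M tags, so no value per replicate was at hand and no test between groups was made. Each peak was given to the nearest protein-coding gene body within 50 kb, and a peak over several bodies went to the gene whose end was nearest to the peak centre. A gene end is either end of the body, and tags are the authors' tag counts scaled to 10 M tags. Wilson 95% intervals of shares cover counting error only. Of 8 β-cell genes looked at as a check of the cell line, Ins1, Nkx6-1, Pdx1 and Slc2a2 among them, 8 had a PDX1 peak in wild-type cells with IL-1B and 7 in wild-type control cells. The peak lists hold no measure of Bmal1 or Pdx1 loss.

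SIN3A was found at most ribosomal protein genes. In cells with Pdx1 siRNA, 71 of the 83 genes had a SIN3A peak (85.5%, Wilson interval 76.4% to 91.5%), against 48.8% of all protein-coding genes. In cells with control siRNA it was 70 of 83 genes (84.3%, 75% to 90.6%), against 46.3% of all genes. The genes are short, with a median body of 3.17 kb against 17.2 kb over all genes, and 82 of the 83 bodies measured at most 10 kb. Among all protein-coding genes with bodies up to 10 kb, 30.1% had a SIN3A peak with Pdx1 siRNA and 28.3% with control siRNA. The stretch of genome nearest to a ribosomal protein gene was also short, with a median of 12 kb against 45 kb. Counted per Mb of that stretch, ribosomal protein genes had 47.4 SIN3A peaks with Pdx1 siRNA, against 8.46 over all genes. With control siRNA they had 44.5 peaks per Mb, against 7.61 over all genes. Most SIN3A peaks lay within 1 kb of a gene end, so peaks per Mb also depend on how closely the genes lie. Counted per gene the contrast was smaller. With Pdx1 siRNA there were 80 peaks for the 83 genes, against 14265 for all 21887 genes. With control siRNA there were 75 and 12833 peaks for the same genes. The part of the contrast per Mb that goes with gene spacing was not tested.

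p65 and PDX1 were found at fewer ribosomal protein genes. In Bmal1-/- cells p65 marked 14 ribosomal protein genes with IL-1B (16.9%, 10.3% to 26.3%), against 32.3% of all genes, and 0 in control cells (upper bound 4.42%), against 0.658%. In wild-type cells it was 18 with IL-1B (21.7%, 14.2% to 31.7%), against 45.4%, and 2 in control cells (2.41%, 0.663% to 8.37%), against 8.92%. PDX1 marked 7 genes in Bmal1-/- cells with IL-1B (8.43%, 4.15% to 16.4%), against 16.0%, and 4 in Bmal1-/- control cells (4.82%, 1.89% to 11.7%), against 16.3%. In wild-type cells PDX1 marked 20 genes with IL-1B (24.1%, 16.2% to 34.3%), against 41.1%, and also 20 in control cells, against 41.6%. The Bmal1-/- PDX1 lists are shorter as a whole, with 8095 peaks with IL-1B and 8339 without it, against 38930 and 40028 in wild-type cells. These shares lay near those of short genes. With bodies up to 10 kb, 15.2% of all genes had a p65 peak in Bmal1-/- cells with IL-1B and 23% in wild-type cells with IL-1B. In control cells it was 0.252% (Bmal1-/-) and 3.22% (wild-type). PDX1 peaks stood at 18.2% with IL-1B and 18.7% without it in wild-type cells, and at 5.15% and 4.92% in Bmal1-/- cells. Per Mb of nearest genome, ribosomal protein genes had 14.8 p65 peaks in wild-type cells with IL-1B, against 14.6 over all genes, and 14.2 PDX1 peaks, against 16.1. In Bmal1-/- cells with IL-1B they had 10.1 p65 peaks, against 7.79, and 4.15 PDX1 peaks, against 3.39. In wild-type control cells it was 1.19 p65 peaks, against 1.43, and 13.6 PDX1 peaks, against 16.4. In Bmal1-/- control cells it was 0 p65 peaks, against 0.0877, and 2.37 PDX1 peaks, against 3.45. The low share of ribosomal protein genes with p65 or PDX1 thus went with the short stretch of genome that each gene was given, and the share due to that length was not tested.

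**Figure D1:**
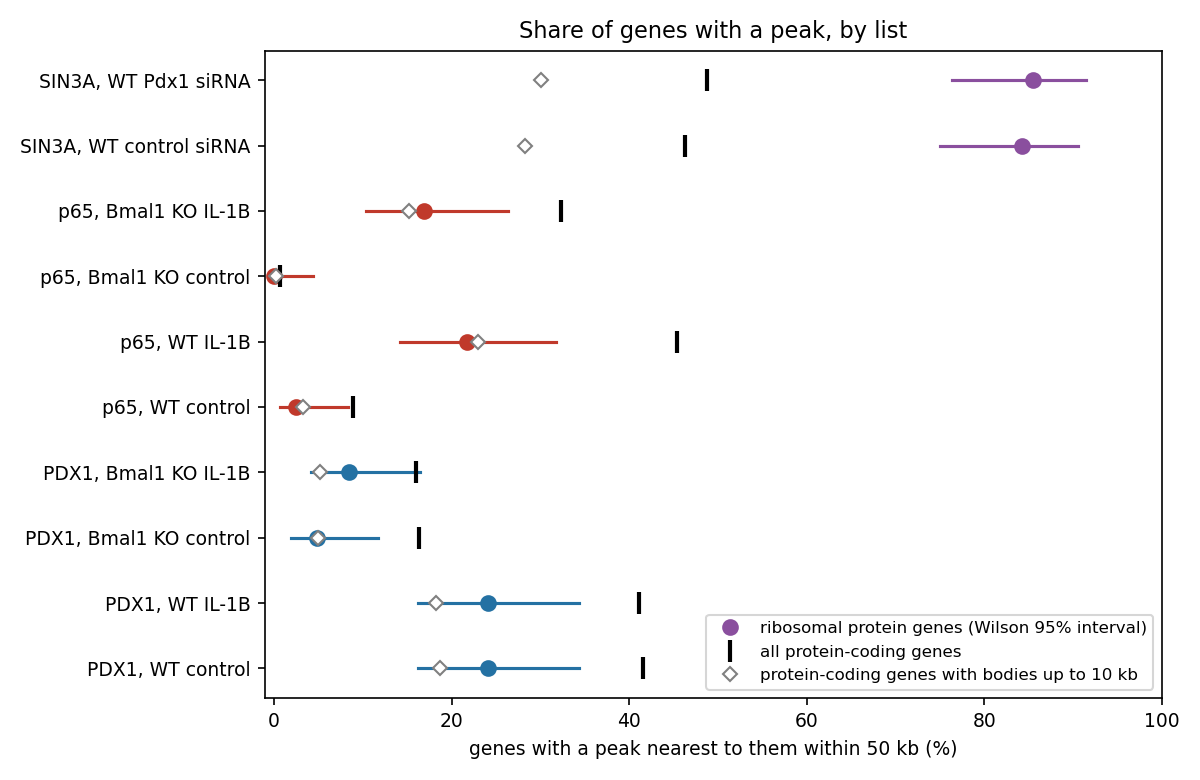
Percent of genes with a peak (horizontal axis) in each of the 10 lists (rows). Filled circles are the 83 ribosomal protein genes with Wilson 95% intervals, black bars all protein-coding genes and open diamonds genes with bodies up to 10 kb. The SIN3A circles at 85.5% and 84.3% lie right of both backgrounds, and the p65 and PDX1 circles lie left of all genes and near the short genes.

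The SIN3A peaks sat at the ends of the genes. With Pdx1 siRNA, 64 genes (77.1%) had a SIN3A peak within 1 kb of an end, against 40.4% of all genes. With control siRNA 63 genes (75.9%) did, against 38.5%. Of the 80 SIN3A peaks of ribosomal protein genes with Pdx1 siRNA, 68 (85%) lay within 1 kb of an end, against 67.8% of all assigned peaks, and their median distance was 148 bp, against 275 bp. With control siRNA it was 67 of 75 peaks (89.3%), against 70.2%, with a median of 166 bp, against 237 bp. A body as short as these leaves little room far from an end, so the 2 sets of distances are not on equal terms. RefSeq transcription starts were at hand for 63 of the 83 genes. Of the SIN3A peaks at those genes, 54 of 58 with Pdx1 siRNA and 52 of 53 with control siRNA had their centre within 1 kb of a listed start. Most of the centres were downstream of it, 48 of 54 (88.9%) with Pdx1 siRNA and 46 of 52 (88.5%) with control siRNA, against 80.8% and 79.2% over all genes. The median centre was 183 bp downstream with Pdx1 siRNA and 149 bp with control siRNA, against 140 bp and 135 bp over all genes. Centres of p65 peaks within 1 kb of a start lay between -208 and 88 bp in Bmal1-/- cells with IL-1B (9 peaks) and between -116 and 48 bp in wild-type cells with IL-1B (3 peaks). The quartiles of these centres were -80 and 32 bp in Bmal1-/- cells with IL-1B, against -188 and 207 bp over all genes. In wild-type cells with IL-1B they were -56.5 and 25.5 bp, against -201 and 270 bp over all genes.

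**Figure D2:**
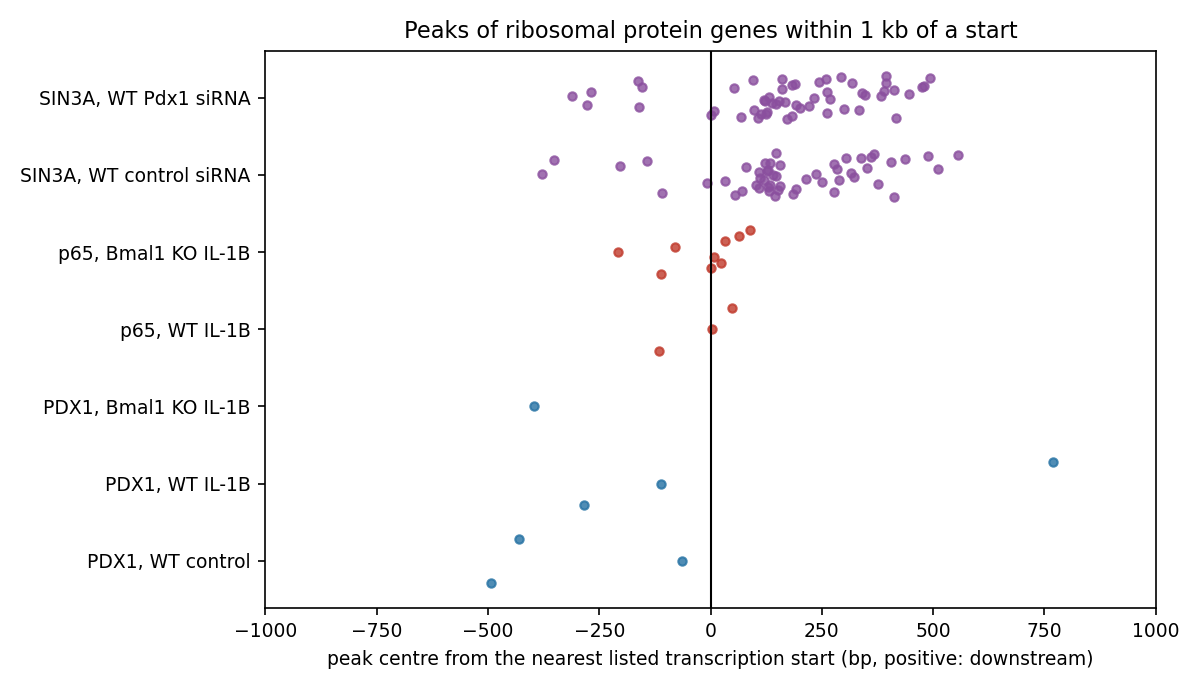
Distance in bp of peak centres from the nearest listed transcription start (horizontal axis, positive downstream) for peaks of ribosomal protein genes within 1 kb, 1 point per peak, by list (rows). The SIN3A points crowd to the right of the start, 48 of 54 with Pdx1 siRNA and 46 of 52 with control siRNA, while the few p65 points straddle it.

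SIN3A peaks were found at 28 of the 30 genes of 40S proteins in both lists. The highest 40S tag counts with Pdx1 siRNA included 61.8 tags at Rps20, 57.5 at Rps12, 57.5 at Rps16 and 57.2 at Rps19. The same genes had 39.9 tags (Rps20), 58.9 (Rps12), 40.6 (Rps16) and 44.8 (Rps19) with control siRNA. RPS19 is the protein most often mutated in Diamond-Blackfan anaemia in humans, and RPS25, needed for translation from some viral entry sites, is encoded by a gene that had 56.0 tags with Pdx1 siRNA and 52.2 with control siRNA. Over the 40S genes with a peak, the median of the highest tag count per gene was 39.5 with Pdx1 siRNA and 31.4 with control siRNA.

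Among the 43 genes of 60S proteins, 37 had a SIN3A peak with Pdx1 siRNA and 36 with control siRNA, and the median highest tag counts were 28.3 and 24. Rpl21 led both lists of ribosomal protein genes, with 92.6 tags with Pdx1 siRNA and 86.6 with control siRNA, each above 99.4% of the peaks of its list. Rpl38, whose protein favours translation of a subset of Hox messengers in the mouse embryo, had 62.9 tags with Pdx1 siRNA and 66.0 with control siRNA. Rpl4 had 56.3 and 41.9 tags in the same order, Rpl22 54.9 and 44.4, Rpl30 52.3 and 42.8, and Rpl27a 46.6 and 44.1. At the low end stood Rpl39, whose protein lines the exit tunnel, with 9.44 tags with Pdx1 siRNA and 8.05 with control siRNA. Rpl5 and Rpl11, whose proteins form the 5S particle that binds MDM2, had intermediate peaks of 29.7 and 28.3 tags with Pdx1 siRNA, and of 30.6 and 24.8 with control siRNA.

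All 3 stalk genes carried SIN3A at high counts. Rplp0, which anchors the stalk to the 60S subunit, had 64.3 tags with Pdx1 siRNA and 47.0 with control siRNA. Rplp2 had 60.6 tags with Pdx1 siRNA and 40.6 with control siRNA, and Rplp1 had 52.3 and 37.7. Of the 7 paralogs, 3 had a SIN3A peak in each list (42.9%, 15.8% to 75%). These were Rps27l, a p53 target in human cells, with 41.7 tags with Pdx1 siRNA and 37.4 with control siRNA, Rpl22l1 with 31.2 and 28.7, and Rpl7l1 with 19.2 and 18.4. Rpl10l and Rpl39l, which are expressed in male germ cells, Rpl3l, which is expressed in heart and skeletal muscle, and Rpl32l had none. Near-identical processed copies of many ribosomal protein genes lie elsewhere in the genome, and how the aligner treated them is not given in the labels, so tags may have been gained or lost through shared sequence.

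**Figure D3:**
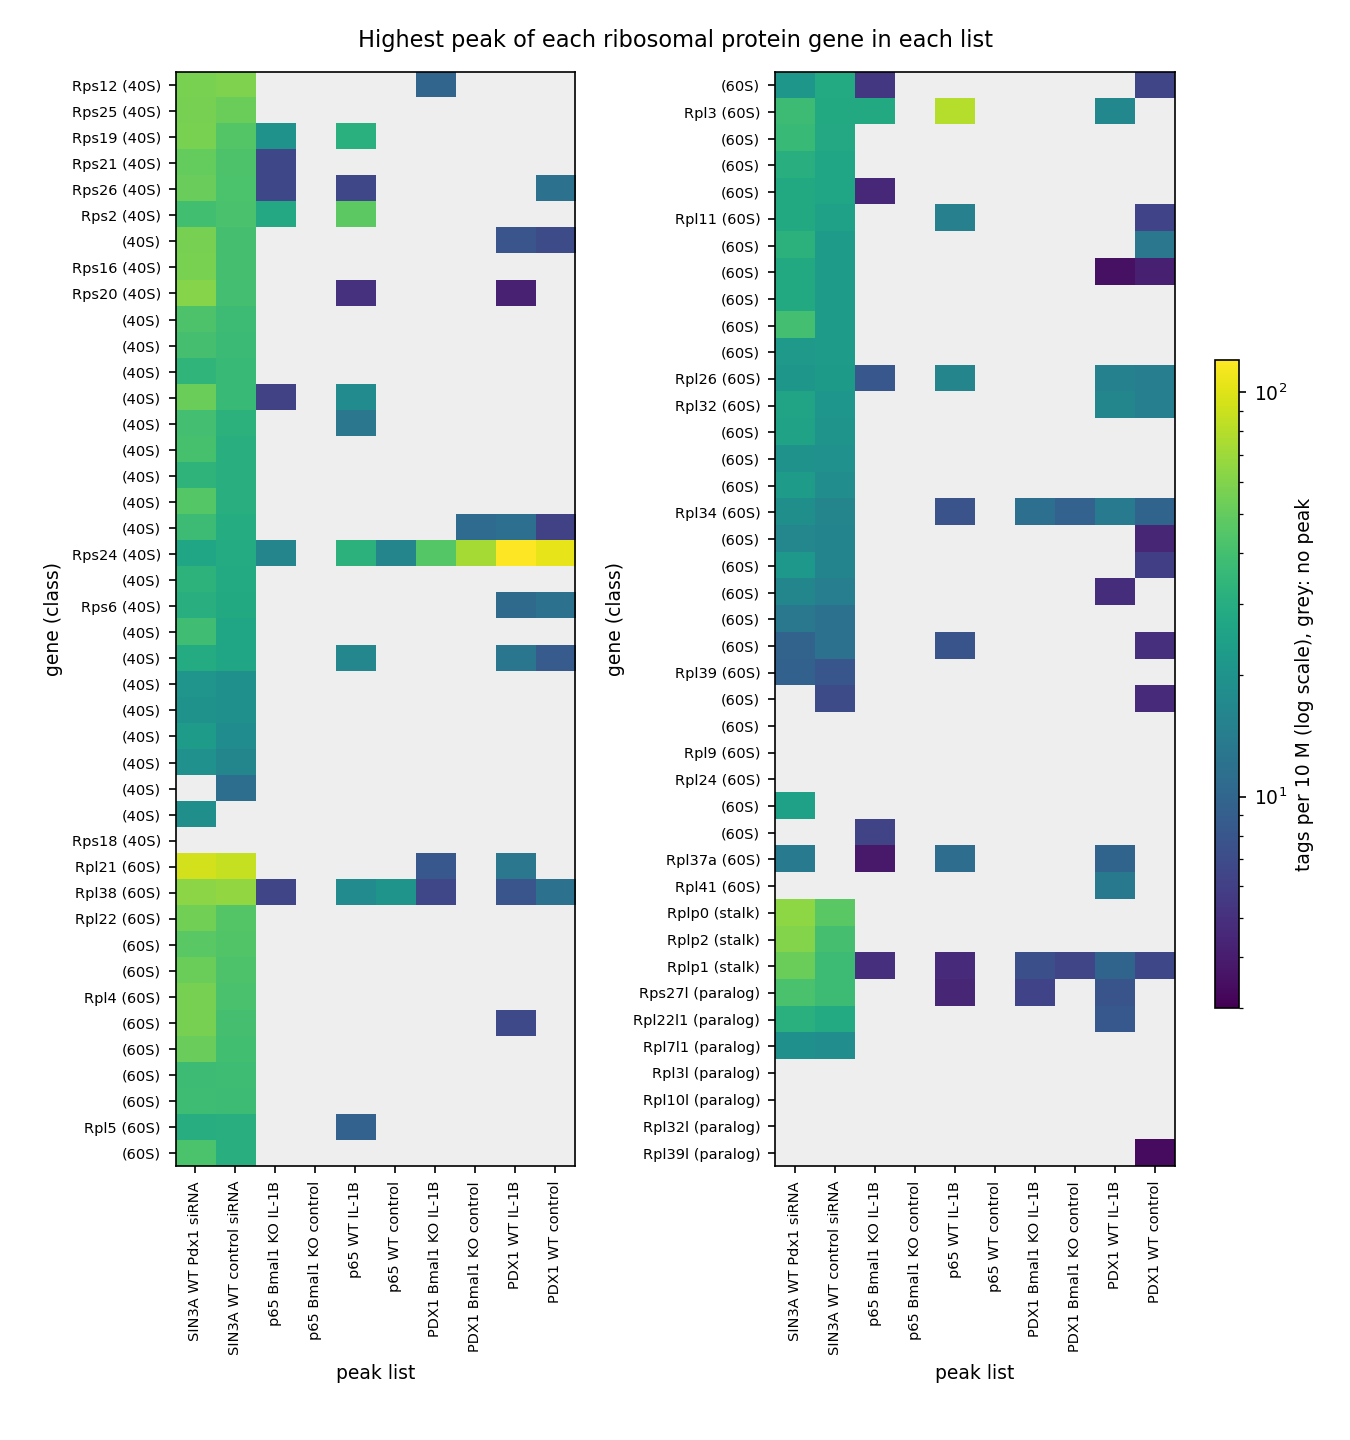
Tags per 10 M (colour, log scale) of the highest peak of each of the 83 ribosomal protein genes (rows, by class and then by SIN3A tags with control siRNA) in the 10 lists (columns), with grey for no peak and names for some of the genes the text describes. The 2 SIN3A columns are filled at 71 and 70 genes, the p65 and PDX1 columns are mostly grey, and the Rps24 row is filled in 9 lists.

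Of the 83 genes, 10 had no SIN3A peak of their own in either list. Besides the 4 paralogs they were Rpl24, Rpl35a, Rpl41, Rpl7a, Rpl9 and Rps18. At 5 of these 6 a SIN3A peak lay within 415 bp of the gene end but counted for a neighbour whose end or body was nearer. The peak 34 bp from the end of Rpl41 counted for Zc3h10 and had 50 tags with Pdx1 siRNA, and the one with control siRNA lay 53 bp away with 46.4 tags. Likewise the SIN3A peak near Rpl9 counted for Lias (37.2 tags with Pdx1 siRNA, 25.4 with control siRNA) and the one near Rpl35a for Iqcg (34.6 and 31.2 tags). Those near Rps18 and Rpl7a counted for Vps52 (31.2 and 25.8 tags) and Med22 (29.2 and 22.9 tags). At Rpl24 the nearest peak, 1949 bp away with Pdx1 siRNA and 1940 bp with control siRNA, counted for Zbtb11. Of the SIN3A peaks that did count for ribosomal protein genes, 12 of 80 with Pdx1 siRNA and 13 of 75 with control siRNA were also within 1 kb of the end of another gene.

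Pdx1 siRNA and control siRNA gave nearly the same set of genes, since 68 genes had a SIN3A peak in both lists. With Pdx1 siRNA alone 3 genes had one, among them Rpl27 at 24.9 tags and Rpl37a at 14 tags, and Rpl36a and Rps4x, both on the X chromosome, had one with control siRNA alone, at 7.09 and 11.3 tags. Genes with SIN3A in both lists or in 1 alone were not counted over all genes. In place, 64 of the 80 peaks with Pdx1 siRNA overlapped a peak of the control siRNA list (80%, 70% to 87.3%), against 66.7% of all assigned peaks. In the other direction it was 65 of 75 peaks (86.7%, 77.2% to 92.6%), against 74.2%. At 56 gene-end peaks present in both lists the tag count with Pdx1 siRNA was a median of 1.2 times that with control siRNA, and 47 of the 56 ratios were above 1. Over all 7227 such peaks the median ratio was 1.16 and 79% were above 1. The ribosomal protein ratios ran from 0.739 at Rpl13, with 21.2 tags with Pdx1 siRNA and 28.7 with control siRNA, to 1.71 at Rpl36, with 39.7 and 23.2 tags. The 2 lists were scaled to total tags alone and hold no replicates, so no difference in SIN3A between the siRNAs is read from these ratios.

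**Figure D4:**
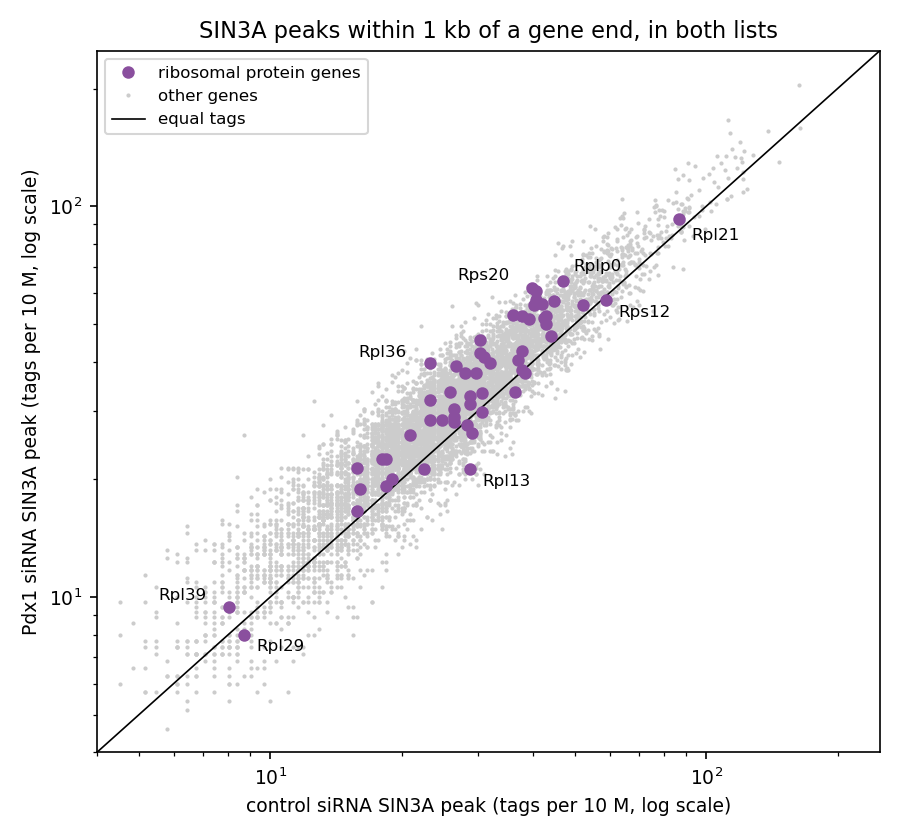
SIN3A tags per 10 M with Pdx1 siRNA (vertical axis, log scale) and with control siRNA (horizontal axis, log scale) at peaks within 1 kb of a gene end that were in both lists. The 56 ribosomal protein peaks (purple) lie within the 7227 peaks in all, and 47 of the 56 lie above the line of equal tags, with a median ratio of 1.2 against 1.16 over all peaks.

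Other genes of translation were also marked by SIN3A. Of 47 ribosome biogenesis factors, 46 had a SIN3A peak in each list, with median highest tag counts of 59.6 with Pdx1 siRNA and 47.7 with control siRNA. That compares with 33.5 and 28.9 tags at the ribosomal protein genes. The highest were Ncl, encoding nucleolin, with 154.1 tags with Pdx1 siRNA and 113.1 with control siRNA, and Utp20, of the small subunit processome, with 134.4 and 106.0. Of 39 translation factors, 38 had a peak with Pdx1 siRNA and 39 with control siRNA, led by Eef1d, an elongation factor subunit, with 82.9 and 77.6 tags. Of the 6 ribosomal protein genes outside the symbol rule 5 had a peak in each list, Rps27rt being the exception. Mitochondrial ribosomal proteins had SIN3A at 64 of 78 genes with Pdx1 siRNA (82.1%, 72.1% to 89%) and at 61 with control siRNA (78.2%, 67.8% to 85.9%). Proteasome subunits had it at 34 of 39 genes (87.2%, 73.3% to 94.4%) and at 31 (79.5%, 64.5% to 89.2%). The intervals of these 2 families overlapped those of the ribosomal protein genes, so a high share with SIN3A was not particular to the cytosolic ribosome.

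**Figure D5:**
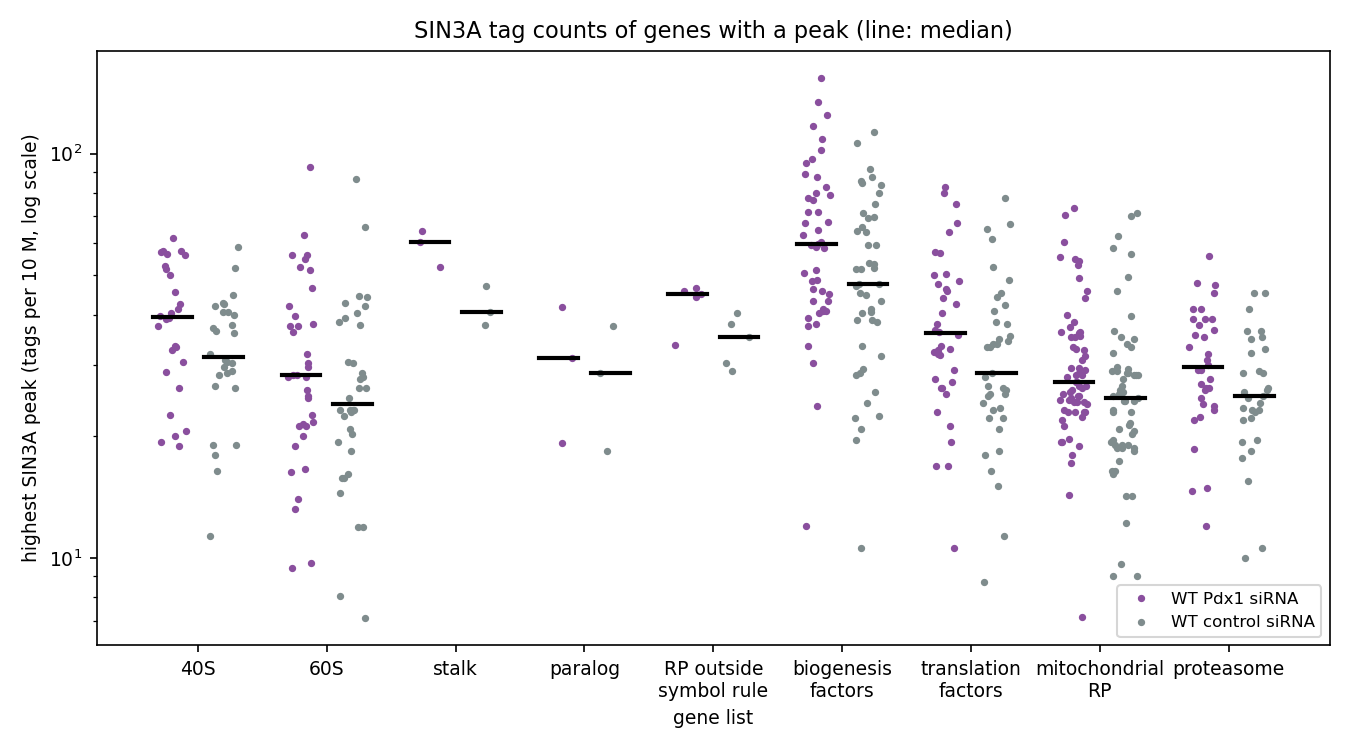
Highest SIN3A tag count of each gene with a peak (vertical axis, tags per 10 M, log scale) by gene list (horizontal axis), with Pdx1 siRNA (purple, left) and control siRNA (grey, right), 1 point per gene and a line at the median. Biogenesis factors have the highest counts among the larger lists, with medians of 59.6 and 47.7, and the medians of 40S genes, 39.5 and 31.4, are above those of 60S genes, 28.3 and 24.

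Promoter sequences were at hand for the 63 genes with a RefSeq entry (assembly GRCm38.p6, the same as mm10). The stretches printed here are the 150 bases upstream of the listed start of the 4 genes with an entry that had the highest SIN3A counts with control siRNA. Of these, only the stretch of Rps25 was overlapped by the gene's SIN3A peak with control siRNA. The peaks of Rpl38, Rps12 and Rplp0 were centred 413, 144 and 186 bp downstream of the start and did not reach the stretch. Capitals mark matches, on either strand, to the letters searched for. These were CCGGAAG for ETS factors, GGGCGG for the GC box, CCAAT for the CCAAT box, TATAAA for the TATA box, CACGTG for the E-box, AAGATGGC for YY1, GCATGCGC for NRF1, TAATTA for homeodomains and GGAATTTCC for NF-κB. The stretches are chr11:114668430-114668579 on the plus strand for Rpl38, chr10:23787210-23787359 on the minus strand for Rps12, chr9:44407564-44407713 on the plus strand for Rps25 and chr5:115559317-115559466 on the plus strand for Rplp0.
Rpl38: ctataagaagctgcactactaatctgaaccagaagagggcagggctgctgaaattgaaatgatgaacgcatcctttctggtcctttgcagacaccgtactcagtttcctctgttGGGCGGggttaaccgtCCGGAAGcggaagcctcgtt
Rps12: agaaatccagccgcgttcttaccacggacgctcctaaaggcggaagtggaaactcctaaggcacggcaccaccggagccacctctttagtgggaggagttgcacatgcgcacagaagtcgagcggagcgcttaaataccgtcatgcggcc
Rps25: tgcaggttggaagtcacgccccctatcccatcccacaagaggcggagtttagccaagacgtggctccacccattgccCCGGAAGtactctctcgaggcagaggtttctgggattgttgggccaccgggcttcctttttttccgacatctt
Rplp0: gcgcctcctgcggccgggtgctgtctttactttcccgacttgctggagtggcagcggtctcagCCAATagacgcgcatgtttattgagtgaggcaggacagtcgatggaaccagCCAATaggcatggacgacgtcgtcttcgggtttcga

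The ETS letters were in 18 of the 63 member promoters (28.6%), against 9.15% of 17492 promoters, searched over the 250 bases before the start. Rpl38 and Rps25 hold them in the stretches above, and Rps12 holds none of the letters searched. The GC box was in 47.6% of the member promoters, against 42.7% of all, and CCAAT was in 25.4%, against 36.5%. TATAAA was in 7.94%, against 12.4%, CACGTG in 6.35%, against 6.65%, and AAGATGGC in 3.17%, against 1.5%. GCATGCGC was in none of the 63 and in 2.98% of all. The median GC content was 56.4% in the member promoters and 55.2% in all. A match is a run of letters and was not tested as a binding site.

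Another feature lay at the start itself. A C at the listed start followed by at least 4 pyrimidines was found at 13 of 63 genes (20.6%), against 2.17% of all promoters, and within 5 bases of the start at 29 genes (46%), against 18.8%. The 30-base windows printed here begin 15 bases before the start, with the pyrimidine run in capitals where it begins within 5 bases of it. They are shown for the 4 genes above, for Rplp2 and Rps21, and for 4 genes with p65 or PDX1 at the start. Rplp2 (40.6 SIN3A tags with control siRNA) and Rps21 (42.8) were not the next in rank. Of genes not printed, Rpl22 (44.4), Rpl4 (41.9) and Rps16 (40.6) have no run within 5 bases of the start, and Rpl27a (44.1) has one.
Rpl38: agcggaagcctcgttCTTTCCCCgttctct
Rps12: taccgtcatgcggccaccgccggccttttc
Rps25: tttttccgacatcttagcgaggctgctgtg
Rplp0: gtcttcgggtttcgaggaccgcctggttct
Rplp2: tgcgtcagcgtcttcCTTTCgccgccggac
Rps21: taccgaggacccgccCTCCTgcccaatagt
Rps19: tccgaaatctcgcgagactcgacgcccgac
Rps2: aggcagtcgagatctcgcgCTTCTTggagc
Rps26: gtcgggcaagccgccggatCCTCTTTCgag
Rps6: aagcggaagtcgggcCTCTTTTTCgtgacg

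The run begins at the start in Rpl38, Rplp2, Rps21 and Rps6, and 4 bases after it in Rps2 and Rps26. Rps12, Rps25, Rplp0 and Rps19 have no such run within 5 bases of the listed start. Starts are as listed in RefSeq, and those used in these cells were not measured. The printed windows are of chosen genes, so they do not give the share of genes with high SIN3A counts that have a run. SIN3A was not compared between genes with and without a run.

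p65 was found near the ends of some ribosomal protein genes. In Bmal1-/- cells with IL-1B 9 genes (10.8%) had a p65 peak within 1 kb of a gene end, close to the 10.4% of all genes. In Bmal1-/- control cells 0 did, against 0.174%. In wild-type cells 3 genes did with IL-1B (3.61%), against 14.6%, and 0 in control cells, against 1.56%. These counts give each peak to 1 gene. Counting any p65 peak within 1 kb of a ribosomal protein gene's end, also where another gene was nearer, gave 14 genes in Bmal1-/- cells with IL-1B and 9 in wild-type cells with IL-1B. This wider count was not made over all genes, so it has no background to be set against. The clearest case near a start was Rps2, whose protein sits near the mRNA entry channel of the 40S subunit. Its p65 peak had 27.7 tags in Bmal1-/- cells with IL-1B and 47.1 in wild-type cells with IL-1B, and neither control list held a p65 peak there. The wild-type peak, at chr17:24719844-24720050, was centred upstream of the listed start (at -116 bp) and overlapped the noncoding gene Snhg9. It lies inside the RefSeq gene body, 1723 bp from its end, so it is not among the 3 peaks at gene ends. Rps19 had a p65 peak at its start, with 19.6 tags in Bmal1-/- cells with IL-1B and 31.2 in wild-type cells with IL-1B. Rpl11 had one 48 bp downstream of the start in wild-type cells with IL-1B alone, with 9.71 tags. The p65 peak of Rps19 in wild-type cells overlapped a SIN3A peak of the control siRNA list.

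The upstream stretches of Rps19 and Rps2, with the same capitals, hold the GC box, and that of Rps2 also the ETS letters and TATAAA. Neither holds GGAATTTCC, which was in none of the 63 member promoters and in 0.309% of all. They are chr7:24884442-24884591 on the plus strand for Rps19 and chr17:24719913-24720062 on the plus strand for Rps2.
Rps19: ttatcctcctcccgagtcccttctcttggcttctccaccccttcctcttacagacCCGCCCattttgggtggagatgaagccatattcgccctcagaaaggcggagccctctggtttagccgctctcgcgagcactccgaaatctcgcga
Rps2: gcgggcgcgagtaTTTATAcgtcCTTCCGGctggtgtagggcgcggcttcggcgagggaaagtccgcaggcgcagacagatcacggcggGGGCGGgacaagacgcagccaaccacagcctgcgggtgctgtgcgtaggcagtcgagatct

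The distance of p65 peaks from the gene ends was not alike in the genotypes. In Bmal1-/- cells with IL-1B 9 of 17 peaks of ribosomal protein genes lay within 1 kb of an end (52.9%), against 17.9% of all assigned peaks, with a median of 712 bp, against 13590 bp. In wild-type cells with IL-1B 3 of 25 did (12%), against 13.6%, with a median of 7567 bp, against 16590 bp. The difference between the genotypes was not tested. As with SIN3A, short bodies and short stretches of nearest genome put distances at ribosomal protein genes on unequal terms with those of all assigned peaks. The highest p65 peak was at chr15:80061220-80061426, 16355 bp from Rpl3, whose protein reaches the peptidyl transferase centre. It had 28.4 tags in Bmal1-/- cells with IL-1B and 79.4 in wild-type cells with IL-1B, and no p65 peak was listed there in either control group. In wild-type control cells the 2 peaks were those of Rpl38, 30613 bp away with 20.1 tags, and of Rps24, 38105 bp away with 16.0 tags. With IL-1B those sites had 6.53 tags (Rpl38) and 16.1 tags (Rps24) in Bmal1-/- cells, and 17.9 and 32.3 tags in wild-type cells. Rps10, Rps3a1, Rpl26, Rpl5, Rpl29, Rpl34, Rps20, Rplp1 and Rps27l had further p65 peaks in wild-type cells with IL-1B, between 4.48 and 16.6 tags.

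Between genotypes with IL-1B, 10 genes had p65 in both and 8 of them shared a place, among them Rpl3, Rpl37a, Rpl38, Rps19, Rps2, Rps24 and Rps26. Genes with p65 in both genotypes were not counted over all genes. Of the 17 p65 peaks in Bmal1-/- cells 9 overlapped one of wild-type cells (52.9%, 31% to 73.8%), against 78.8% of all assigned peaks. The 8 others included low peaks at the start of genes. Rpl26 had 8.12 tags, Rps21 6.71, Rps26 6.71, Rpl35a 6.36, Rpl13 5.47, Rpl38 5.12 and Rpl10 4.59, with centres between -208 and 88 bp from the start. The Rps26 peak here is another than its shared site. None of these 7 places had a p65 peak in wild-type cells with IL-1B. Of the 17 peaks in Bmal1-/- cells 6 overlapped a SIN3A peak of the control siRNA list (35.3%, 17.3% to 58.7%), against 9.67% of all assigned peaks. In wild-type cells with IL-1B it was 2 of 25 (8%, 2.22% to 25%), against 6.32%. The Bmal1-/- peaks at gene ends lay at the median above 26.9% of the gene-end peaks of their list, and Rpl35a, Rpl13 and Rpl10 were 4.05, 4.5 and 4.88 times over input, near the 4-fold minimum of the peak call. Whether these peaks reflect the knockout was not tested.

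PDX1 was at the ends of few ribosomal protein genes. In Bmal1-/- cells 3 of the 83 genes had a PDX1 peak within 1 kb of an end with IL-1B (3.61%), against 1.17% of all genes, and 0 in control cells, against 1.07%. In wild-type cells 9 did with IL-1B (10.8%), against 6.09%, and 8 in control cells (9.64%), against 7.06%. These differences from all genes amount to a few genes. In Bmal1-/- cells with IL-1B the 3 were Rps12 (10.0 tags), Rplp1 (7.35) and Rps27l (6.26). In wild-type cells with IL-1B the 9 included Rpl3 (16.7 tags), Rpl32 (16.4), Rpl41 (13.3), Rps6 (10.7), Rpl37a (9.88), Rplp1 (9.88) and Rpl22l1 (8.26). In wild-type control cells the 8 included Rpl32 (14.8 tags), Rpl10a (13.0), Rps26 (11.8), Rps6 (11.8), Rpl13 (6.48), Rpl29 (4.99) and Rpl36a (4.65). Rpl32 had the peak at the same place in both lists, while the 2 peaks of Rps6 lay at opposite ends of the gene. In wild-type cells with IL-1B, 9 of 24 PDX1 peaks of the family lay within 1 kb of an end (37.5%). Over all assigned peaks it was 5.06%. In wild-type control cells 8 of 23 did (34.8%), against 5.79%. Median distances were 6282 bp and 7481 bp, against 25230 bp and 25050 bp. In Bmal1-/- cells it was 3 of 7 with IL-1B (42.9%), against 4.5%, and 0 of 4 in control cells, against 4.02%. The short bodies and short stretches of nearest genome put these distances on unequal terms.

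Few PDX1 peaks of the family were centred within 1 kb of a listed start. In wild-type cells there were 3 with IL-1B, from -285 to 769 bp, and 3 in control cells, from -492 to -64 bp. Their medians were -111 and -431 bp, against -154 and -158 bp over all genes. In Bmal1-/- cells there was 1 with IL-1B, at -396 bp, and 0 in control cells. The closest were at -111 bp of Rps6 in wild-type cells with IL-1B and at -64 bp of Rps26 in wild-type control cells. RPS6 is the 40S protein phosphorylated by S6 kinase downstream of mTOR, and RPS26 contacts the mRNA near the exit channel. The upstream stretch of Rps26 holds the homeodomain letters TAATTA, found in 3.17% of member promoters and in 4.46% of all, and that of Rps6 holds the ETS letters. They are chr10:128626507-128626656 on the minus strand for Rps26 and chr4:86857368-86857517 on the minus strand for Rps6.
Rps26: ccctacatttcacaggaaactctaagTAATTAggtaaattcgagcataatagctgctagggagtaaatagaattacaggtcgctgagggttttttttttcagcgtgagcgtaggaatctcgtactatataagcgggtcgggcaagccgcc
Rps6: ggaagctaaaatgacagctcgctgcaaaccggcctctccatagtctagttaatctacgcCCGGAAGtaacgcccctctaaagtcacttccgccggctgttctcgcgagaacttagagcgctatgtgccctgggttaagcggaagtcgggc

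A distant site near Rps24 was listed in more groups than any other p65 or PDX1 site of the family. At chr14:24535095-24535321, 38135 bp from Rps24, whose messenger is alternatively spliced between tissues, PDX1 was listed in all 4 PDX1 groups. It had 45.2 tags in Bmal1-/- cells with IL-1B and 72.5 in Bmal1-/- control cells. In wild-type cells it had 118.4 tags with IL-1B, above 99.8% of the peaks in that list, and 104.0 in control cells. The same place held p65 in 3 of the 4 p65 lists, all but the Bmal1-/- control list. Rps24 itself had SIN3A at its start with 26.3 tags with Pdx1 siRNA and 29.0 with control siRNA. Another site near Rpl34 had PDX1 in 4 lists, with 11.6 tags in Bmal1-/- cells with IL-1B, 9.61 in Bmal1-/- control cells, 13.9 in wild-type cells with IL-1B and 9.8 in wild-type control cells.

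The PDX1 peaks of ribosomal protein genes coincided in part between conditions. In wild-type cells 7 of 24 peaks with IL-1B overlapped one of the control list (29.2%, 14.9% to 49.2%), against 61.7% of all assigned peaks. In the other direction it was 7 of 23 (30.4%, 15.6% to 50.9%), against 60.5%. The 6 genes that shared a peak included Rpl26, Rpl32, Rpl34, Rps24 and Rps3a1. With IL-1B alone 9 genes had PDX1, with the highest tag counts at Rpl3 (16.7), Rpl41 (13.3), Rpl21 (13.0) and Rpl37a (9.88). In control cells alone 9 others had it, with the highest at Rpl10a (13.0), Rps26 (11.8), Rpl13 (6.48) and Rpl11 (6.31). Genes with PDX1 only with IL-1B or only in control cells were not counted over all genes, so these counts have no background. PDX1 peaks of the family were of low to middle rank, with medians above 53.6% of the wild-type IL-1B list and above 43.3% of the wild-type control list. Of the 7 Bmal1-/- peaks with IL-1B 4 were in the wild-type IL-1B list (57.1%, 25% to 84.2%), against 90% of all assigned peaks. Of the 4 Bmal1-/- control peaks 3 were in the wild-type control list (75%, 30.1% to 95.4%), against 91.9%.

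Over all lists, 45 of the 83 genes had neither p65 nor PDX1 anywhere (54.2%), against 39.2% of all genes and 64.5% of genes with bodies up to 10 kb. Of these 45, 38 carried SIN3A (84.4%), a share close to that of the whole family, against 28.1% of all genes with neither and 21.2% of the short ones. All 3 proteins were found at 14 genes, which were Rpl11, Rpl13, Rpl26, Rpl29, Rpl3, Rpl34, Rpl37a, Rpl38, Rplp1, Rps20, Rps24, Rps26, Rps27l and Rps3a1. These were all of the ribosomal protein genes with both p65 and PDX1 (16.9%, against 36.9% of all genes and 14.5% of genes with bodies up to 10 kb), and with SIN3A at 73 of the 83 genes little is read from that. At the level of single sites the overlap was small, since 2 of 24 PDX1 peaks in wild-type cells with IL-1B (8.33%) overlapped SIN3A of the control siRNA list, at Rpl3 and Rpl32, against 2.67% of all assigned PDX1 peaks. In wild-type control cells it was 3 of 23 (13%), at Rpl29, Rpl32 and Rps26, against 2.93%. Between p65 and PDX1 in wild-type cells with IL-1B, 7 of 25 p65 peaks overlapped PDX1 (28%, 14.3% to 47.6%), against 31.5% of all. Rps24 had a peak in 9 of the 10 lists, Rpl38 and Rplp1 in 8, Rpl34 in 7, and 36 genes in 2 lists. The 7 genes in no list were Rpl10l, Rpl24, Rpl32l, Rpl3l, Rpl7a, Rpl9 and Rps18.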

How the data were processed

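Chromatin immunoprecipitation with sequencing of 28 immunoprecipitated samples in 10 groups and 6 inputs was used, 34 samples in all. Per the file headers, the authors called the peaks of each group with HOMER findPeaks (factor style), and kept those that passed a false discovery rate of 0.001, a 4-fold excess over input (p-value 0.0001) and a 4-fold excess over the local 10 kb. Whether the replicates were merged is not stated, and no value per replicate was at hand. The labels do not say that replicates were separate cultures. The submitters' processing notes name Bowtie2, HOMER and mm10, without settings. The signal of a peak is the tag count, which the authors scaled to 10 M tags. The score is the authors' HOMER peak score, as deposited, and it ordered lists cut to equal length. The ratio, or fold over input, is the authors' own as deposited. These values describe and rank peaks within a list.

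Peaks were assigned to 21887 nuclear protein-coding genes of RefSeq (GRCm38.p6), by their bodies, within 50 kb, and near an end means within 1 kb. Peaks of 2 lists were shared if they overlapped by 1 bp. Signed distances used the nearest RefSeq start of the gene. Genome nearest to a gene was measured on a 1 kb grid. Assignment and overlap were tested on simulated peaks. Python 3.11.15, numpy 2.4.6, pandas 2.3.3, scipy 1.17.1 and matplotlib 3.10.9 were used. Named genes were those with the highest tag counts, those with peaks near an end, those that differed between lists and the paralogs. Rpl39, Rpl5, Rpl11, Rpl13 and Rpl36 were singled out after their values were seen, as was the class of Rpl32l. The members and lists were chosen with earlier results of these data known. Single values of some genes are not reported here. Of 7 listed paralogs 6 were matched. Alternatives were windows of 10 and 100 kb, any peak near a member end, 8-fold over input, leaving out paralogs, short genes as background, stricter overlap, equal list lengths and distance from the peak centre. Counting tied genes together and peaks per Mb were added after the data had been seen.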

Additional observations from a re-analysis of the deposited data

How the results depend on the processing

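Widening the window to 100 kb, leaving out the listed paralogs and counting every gene under a peak kept all 10 member counts within 1.5 times. SIN3A member counts and shared counts stayed within 1.5 times under all alternatives run. Counting every gene under a peak, and peaks per Mb, were chosen after seeing the data. Within 10 kb, members were 0 for p65 in wild-type control cells, and for PDX1 2 in Bmal1-/- and 13 in wild-type control cells. Counting any peak within 1 kb of a member end gave 9 for p65 in wild-type cells with IL-1B and 0 in wild-type control cells. For PDX1 it gave 3 in Bmal1-/- cells with IL-1B, 0 in Bmal1-/- control cells, 9 in wild-type cells with IL-1B and 9 in wild-type control cells. No such count was made over all genes. At 8-fold over input p65 members were 8, 11 and 1 (Bmal1-/- with IL-1B, wild-type with IL-1B, wild-type control), and PDX1 members were 3, 1, 9 and 8 (Bmal1-/- with IL-1B, Bmal1-/- control, wild-type with IL-1B, wild-type control). Members sharing a p65 peak between wild-type cells with IL-1B and control were 0 at 8-fold or equal list lengths, and between genotypes with IL-1B 3 at 8-fold. For PDX1, wild-type cells with and without IL-1B shared 2 at 8-fold. Bmal1-/- cells with and without it shared 1 at 50% reciprocal overlap, within 100 bp or at 8-fold. The genotypes with IL-1B shared 2 at 50% reciprocal overlap, 100 bp or 8-fold, and 1 at equal lengths. The control cells of both genotypes shared 0 at 50% reciprocal overlap and 1 at 8-fold or equal lengths. The cause of these changes, beyond fewer peaks, was not tested.

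From the peak centre, median end distances of SIN3A peaks were 252 bp with Pdx1 siRNA and 278 bp with control siRNA. No paired analysis was possible because the lists hold no value per replicate, so leaving out a replicate and a replicate block were not run.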
